A study of Homo sapiens with 4 samples.

Results

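Accessible sites were described at 9 genes of epithelial adhesion and keratin filaments, CDH1, EPCAM, GRHL2, ESRP1, CLDN4, KRT8, KRT18, KRT7 and KRT19. The members were the ATAC-seq peaks that overlap 8 windows of the hg19 build, set by coordinates around these genes and not by measured values, with KRT8 and KRT18 sharing a window. Cells of BCPAP, an established line from a human papillary thyroid carcinoma, had been treated with 5-azacytidine (2 libraries) or left untreated (2 libraries). Part of the drug is built into DNA, where it binds DNA methyltransferases and lowers CpG methylation. The study asked where accessibility changes under the drug. All 4 libraries come from the same line, and the labels state no dose, no duration and no separate cultures, so the spread between replicates may be technical. The windows held 130 and 149 peaks in 5-azacytidine replicates 1 and 2, and 135 and 136 peaks in untreated replicates 1 and 2. Merging peaks that share at least 1 bp gave 155 regions in the windows, of 373425 on chromosomes 1 to 22 and X. Whether a region lies at a promoter, in a gene or outside it was not analysed here for want of hg19 gene models, and each window is called by its gene.

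Epithelial cells adhere through adherens junctions, in which E-cadherin (CDH1) binds its like on the next cell, and through tight junctions, which are sealed by claudins. Their cytoskeleton is built of keratin filaments, in which a type II keratin such as KRT8 or KRT7 pairs with a type I keratin such as KRT18 or KRT19. The transcription factor GRHL2 and the splicing regulator ESRP1 maintain this programme, and genes of the programme are often silenced, in some cases with promoter methylation, when carcinoma cells take on a mesenchymal state. In the thyroid, follicular cells are a simple epithelium with KRT8 and KRT18, and KRT19 is a common marker of papillary carcinoma.

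Promoter sequence for display was at hand for CLDN4 and KRT8. The sequences are those of RefSeq on GRCh38.p14, from 250 bases before to 50 after the annotated start, on the gene's strand, at chr7:73830746-73831045 (plus strand) for CLDN4 and chr12:52926420-52926719 (minus strand) for KRT8. They are shown because 5-azacytidine acts on CpG sites, which are in capitals, and they were not placed among the hg19 peaks.
CLDN4: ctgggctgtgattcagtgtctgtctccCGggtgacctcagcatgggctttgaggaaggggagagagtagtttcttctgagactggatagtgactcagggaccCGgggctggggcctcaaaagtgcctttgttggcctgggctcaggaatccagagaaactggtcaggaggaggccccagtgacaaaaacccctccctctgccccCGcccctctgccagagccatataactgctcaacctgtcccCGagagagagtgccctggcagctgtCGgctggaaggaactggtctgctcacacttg
KRT8: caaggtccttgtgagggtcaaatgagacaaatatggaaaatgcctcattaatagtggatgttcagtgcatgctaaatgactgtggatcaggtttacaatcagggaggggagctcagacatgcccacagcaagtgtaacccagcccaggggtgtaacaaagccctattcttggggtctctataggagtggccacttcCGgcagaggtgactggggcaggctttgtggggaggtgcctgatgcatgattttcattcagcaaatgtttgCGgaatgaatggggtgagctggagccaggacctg
The CLDN4 sequence held 5 CpG sites and the KRT8 sequence 2, against a median of 14 over 35116 promoters of the same length. Each sequence covers 1 annotated start, and other starts of these genes were not analysed here. As few or fewer sites were found in 33.7% of promoters for CLDN4 and in 18.2% for KRT8. The pattern TGANTCA, a loose form of the AP-1 site with any base in the middle, reads the same on both strands. It occurred 2 times in the CLDN4 sequence without overlap, as tgattca and tgactca, and 0 times in that of KRT8. Among all promoters 7.71% held this pattern at least 1 time and 0.515% at least 2 times. A match describes the letters only.

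Values at the members have to be read against the libraries as a whole. Summit coverage, the number of reads over the highest point of a peak, was derived from the authors' fold enrichment and is the peak's own value in its list. It was 4 or more for every listed peak. Over the 105414 regions with a peak in all 4 lists its median was 11 and 16 in 5-azacytidine replicates 1 and 2, against 23 and 18 in untreated replicates 1 and 2. The log2 ratio of mean coverage, 5-azacytidine over untreated, accordingly had a median of −0.55 over these regions, and −0.74 over the 44980 of them with a mean coverage of at least 20. Ratios at the members are therefore given beside this shift. Background coverage derived from the same fold enrichment was 0.8985 and 0.8752 in 5-azacytidine lists, against 0.9129 and 0.8978 in untreated lists. The cause of the shift was not tested. Scaled coverage is coverage divided by the median of the same library over the 105414 regions with a peak in all 4 lists.

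The first comparison was of peak numbers. The 8 windows held 139.5 ± 13.4 peaks in 5-azacytidine lists and 135.5 ± 0.707 in untreated lists (SD, n = 2 each), and the groups overlapped (exact two-sided permutation p = 1). Over all chromosomes used the log2 ratio of peak numbers was 0.18, against 0.042 in the windows. CLDN4 had fewer peaks in both 5-azacytidine lists, with 11 and 19, than in the untreated lists, with 21 and 20. ESRP1 had more in both, with 5 and 6 against 4 and 4. Each gave an exact permutation p of 0.333, the smallest that 2 libraries against 2 allow, so no window could pass a threshold. In the windows of CDH1, EPCAM, GRHL2, KRT8 and KRT18, KRT7 and KRT19 the groups overlapped.

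**Figure D1:**
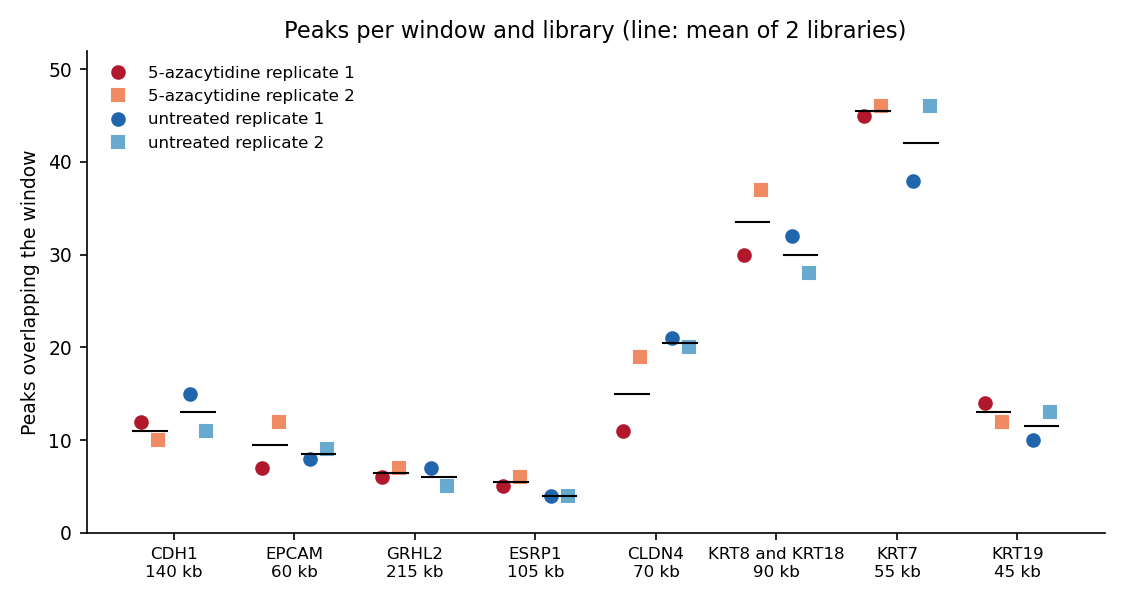
Number of peaks overlapping each window (vertical axis) in each library, with the length of the window in kb under its name; circles and squares are replicates 1 and 2, and black lines are means of 2 libraries. The KRT7 window holds 45 and 46 peaks in 5-azacytidine lists and 38 and 46 in untreated lists within 55 kb, and the CLDN4 window is lowest in 5-azacytidine replicate 1, at 11.

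The windows differed more from each other than between the groups. KRT7 was the densest, with 8.18 and 8.36 peaks per 10 kb in 5-azacytidine lists and 6.91 and 8.36 in untreated lists. KRT8 with KRT18 had 3.33 and 4.11, against 3.56 and 3.11. GRHL2 was the sparsest, with 0.279 and 0.326 peaks per 10 kb in 5-azacytidine lists and 0.326 and 0.233 in untreated lists. The chromosomes used had 0.881 and 0.832 in 5-azacytidine lists and 0.751 and 0.758 in untreated lists, so that in all 4 lists GRHL2 and ESRP1 lay below that density and EPCAM, CLDN4 and all keratin windows above it.

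The next comparison asked which regions appeared or disappeared with treatment. Regions listed in both 5-azacytidine libraries and absent from both untreated libraries are called gained, and those with the opposite pattern are called lost. Of the 155 regions 5 were gained, or 3.23%, against a background of 4.21% of all regions, and 4 were lost, or 2.58%, against 3.35%. Both shares lay near the background. A peak in every list was found at 66 regions, or 42.6%, against 28.2% of all regions, and 53 were found in 1 list only, or 34.2%, against 45.9%. Of those 53, 22 belonged to 5-azacytidine replicate 2 and 15 to 5-azacytidine replicate 1, against 9 and 7 in untreated replicates 1 and 2. Over all chromosomes used 5-azacytidine replicate 1 held the largest share of these single-list regions, with 42.0%, and 5-azacytidine replicate 2 held 23.9%.

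Gained and lost regions were low peaks. In the KRT7 window the gained region on chromosome 12 from 52649224 to 52649874 reached 8 and 12 in 5-azacytidine replicates 1 and 2. The ESRP1 window held a gained region on chromosome 8 from 95654429 to 95654975, with 7 and 7. GRHL2 had a gained region on chromosome 8 from 102514530 to 102515096, with 4 and 4. These lie at or near the lowest coverage a listed peak can have, except in KRT7. Gained regions of the KRT8 and KRT18 window lay from 53275688 to 53276477, with 4 and 5, and from 53317869 to 53318372, with 4 and 4, on chromosome 12. The lost region of the CDH1 window, on chromosome 16 from 68778612 to 68779135, reached 9 and 6 in the untreated lists. The CLDN4 window lost regions on chromosome 7 from 73210878 to 73211418, with 6 and 7, and from 73252692 to 73253221, with 7 and 5. KRT8 and KRT18 had a lost region from 53291902 to 53292814 on chromosome 12, with 5 and 5. At 4 of these 9 regions, the gained ones of GRHL2 and KRT7, the later lost one of CLDN4 and that of KRT8 and KRT18, a peak number was missing in a list counted as without a peak. Absence of a called peak is uncertain there.

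Coverage was then compared at the 66 regions of all 4 lists. Both 5-azacytidine lists lay below both untreated lists at 37 of them, or 56.1%, against a background of 47.6%, and above both at 7, or 10.6%, against 4.39%. On scaled coverage 20 were lower, or 30.3%, against a background of 22.2%, and 18 were higher, or 27.3%, against 27.2%. The split of higher to lower thus depends on the scale. Of the 7 higher regions 6 lay in the KRT7 window and 1 in that of KRT8 and KRT18. In the other windows together, without KRT7, 1 of 47 regions was higher. The median log2 ratio was −0.66 over the 66 regions. It was −1.16 for CLDN4, −0.99 for KRT19, −0.87 for CDH1, −0.76 for EPCAM, −0.65 for KRT8 and KRT18, −0.55 for the only such region of ESRP1, −0.31 for KRT7 and −0.07 for GRHL2. Of the 66, 31 had a mean coverage of at least 20, or 47.0%, against 42.7% of all regions of 4 lists, and the median ratio of the 31 was −0.92, against −0.74 for all regions of that height.

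**Figure D2:**
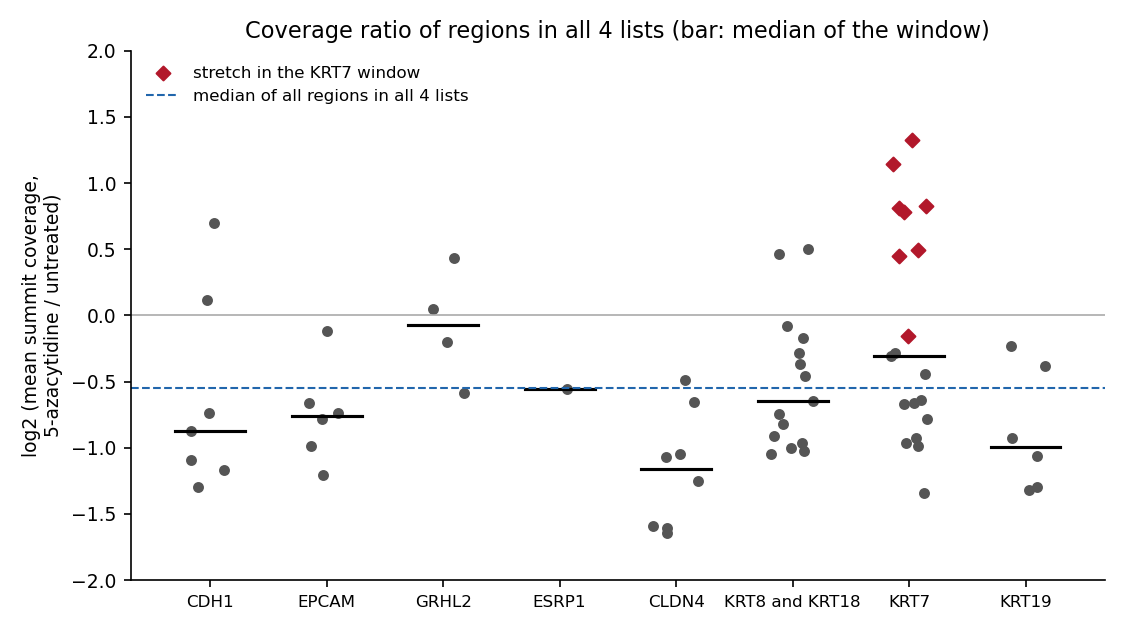
Log2 ratio of mean summit coverage, 5-azacytidine over untreated (vertical axis), for each of the 66 regions found in all 4 lists, by window; bars are window medians, the dashed line is the median of −0.55 over all regions of all 4 lists, and points are spread sideways only to be seen. The red diamonds, 8 regions of a stretch in the KRT7 window, reach up to 1.32, while the CLDN4 window lies between −1.64 and −0.49.

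Adhesion genes come first. CDH1, which encodes E-cadherin, had mostly low peaks. Median coverage of its 7 regions in all 4 lists was 8 and 11 in 5-azacytidine libraries and 13 and 13 in untreated libraries. Of these 7 regions 4 were lower in both 5-azacytidine lists, against a background of 47.6%. The highest, on chromosome 16 from 68794631 to 68795218, had a coverage of 10 and 18 in 5-azacytidine replicates 1 and 2, against 42 and 21 in untreated replicates 1 and 2. The region from 68877204 to 68877896 had 6 and 18 in 5-azacytidine libraries, against 15 and 25 in untreated libraries, and that from 68857212 to 68857740 had 11 and 14 against 10 and 13. The groups were apart at the first of these and overlapped at the other two. The lowest ratio of the window was at 68789796 to 68790687, with 5 and 6 in 5-azacytidine libraries against 13 and 14 in untreated libraries. The log2 ratio was −1.30, and the groups were apart there on either scale. Peak centres lay at 68790046 and 68790110 in 5-azacytidine libraries but at 68790436 and 68790438 in untreated libraries. The ratio thus sets different summits of a merged region side by side. The region from 68824007 to 68824616 went the other way from most of the window, with 15 and 11 against 11 and 5, a log2 ratio of 0.70 that 97.6% of all regions of 4 lists lay below. The groups met there at 11. Between 68771023 and 68771522 only untreated replicate 1 had a peak, with a coverage of 7.

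EPCAM encodes an adhesion glycoprotein of the epithelial surface. Of its 6 regions in all 4 lists, 5 had lower coverage in both 5-azacytidine lists, against a background of 47.6%. The highest lay on chromosome 2 from 47587976 to 47588494, with 32 and 37 in 5-azacytidine libraries against 59 and 50 in untreated libraries. Next was the region from 47581225 to 47582151, with 21 and 24 against 41 and 48. The groups were apart at both regions. On scaled coverage 1 of the 6 regions was lower in both 5-azacytidine lists, a share near the background of 22.2%.

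CLDN4, a claudin of tight junctions, had the lowest ratios of the 8 windows. Its highest region, on chromosome 7 from 73236728 to 73237404, had a coverage of 23 and 35 in 5-azacytidine replicates 1 and 2, against 89 and 86 in untreated replicates 1 and 2. The log2 ratio was −1.59, and 1.86% of all regions of 4 lists had a lower one. The groups were far apart there, and the untreated libraries differed little. Ratios as low were found at 2 further regions, from 73244946 to 73246496, with 13 and 13 against 52 and 27 (−1.60), and from 73256606 to 73257139, with 7 and 10 against 25 and 28 (−1.64). Other high regions were from 73241987 to 73242992, with 12 and 27 in 5-azacytidine libraries against 54 and 39 in untreated libraries, and from 73264472 to 73265538, with 20 and 27 against 48 and 49. These 5 regions were lower in both 5-azacytidine lists on either scale. They were the only such ones among the 8 regions of all 4 lists in the window. Their share was 62.5%, against a background of 47.6% and, on scaled coverage, 22.2%. Of the 8 regions 7 lay below the median ratio of all regions. Of the 6 regions in this window that were found in 3 lists, 4 lacked a peak in 5-azacytidine replicate 1, the library with the lowest coverage, and 2 in 5-azacytidine replicate 2. Over all chromosomes used 41.2% of such regions lacked a peak in 5-azacytidine replicate 1 and 18.3% in 5-azacytidine replicate 2. How far the coverage of that library bears on the count was not tested.

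**Figure D3:**
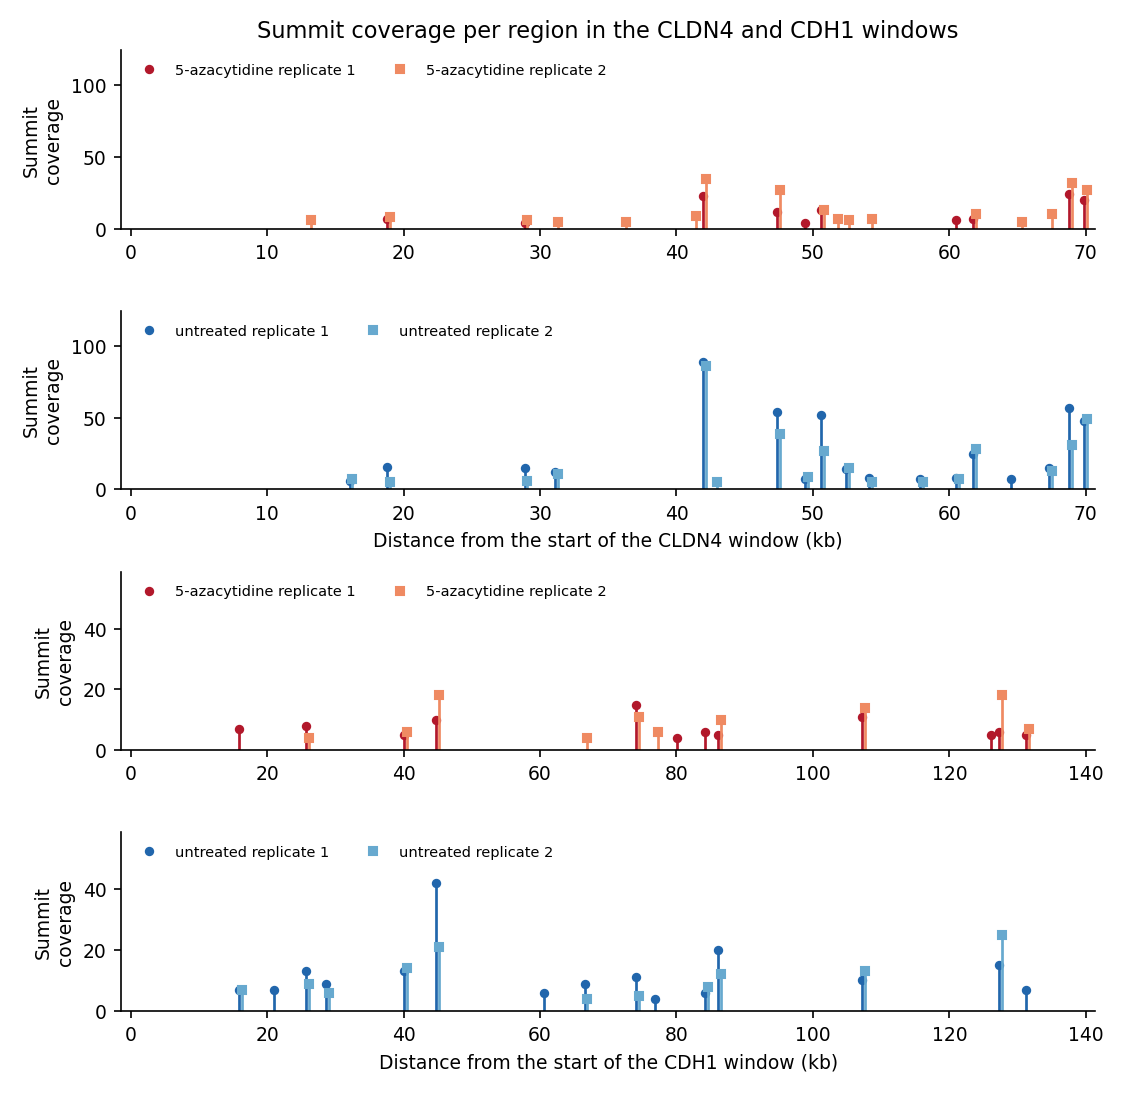
Summit coverage (reads, vertical axes) of each region against the distance of its centre from the start of the window in kb, for CLDN4 (upper 2 panels) and CDH1 (lower 2 panels), with 5-azacytidine libraries above untreated libraries and replicates as circles and squares. The highest CLDN4 region reaches 23 and 35 in the upper panel and 89 and 86 in the next, while no CDH1 region exceeds 42.

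The regulators had few sites. GRHL2 encodes a transcription factor of epithelial genes, and 4 of the 10 regions in its window were in all 4 lists. The highest, on chromosome 8 from 102550323 to 102550883, had 9 and 19 in 5-azacytidine libraries against 26 and 16 in untreated libraries. From 102552498 to 102553035 coverage was 10 and 18 against 17 and 10, and from 102516462 to 102517255 it was 15 and 12 against 15 and 5. The groups overlapped or met at all 4 regions, and 3 of the 4 had higher scaled coverage in both 5-azacytidine lists, against a background of 27.2%.

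ESRP1, whose protein drives epithelial splice forms, had 1 region in all 4 lists, on chromosome 8 from 95731704 to 95733111. It had 16 and 31 in 5-azacytidine libraries against 37 and 32 in untreated libraries, a log2 ratio of −0.55, in the middle of all regions. From 95635095 to 95636238 coverage was 8 in 5-azacytidine replicate 1, no peak in 5-azacytidine replicate 2, and 8 and 10 in untreated libraries. The other regions of this window had a coverage of at most 10.

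KRT8 and KRT18, the type II and type I keratins of simple epithelia, are neighbours and shared the highest peaks of the 8 windows. On chromosome 12 from 53318384 to 53319332, coverage was 62 and 105 in 5-azacytidine replicates 1 and 2, against 98 and 117 in untreated replicates 1 and 2. Beside it, the region from 53319739 to 53322422 had 42 and 59 against 98 and 60, with 3 peaks in each list but untreated replicate 2, which had 4. The groups overlapped at the first. At the next both 5-azacytidine lists were lower, with a log2 ratio of −0.65, although 59 in 5-azacytidine replicate 2 stood beside 60 in untreated replicate 2. The region from 53343402 to 53343974 had 30 and 33 against 59 and 69, with the groups apart and a log2 ratio of −1.02. Near the end of the window 2 regions had positive log2 ratios. From 53349758 to 53351282 coverage was 17 and 23 in 5-azacytidine libraries against 20 and 9 in untreated libraries, and from 53358181 to 53359593 it was 8 and 9 against 5 and 7. The groups overlapped at the earlier region, and the later, with low coverage in every list, was the only higher region of this window. The log2 ratios were 0.46 and 0.50 for the 2 regions. Of the 17 regions found in a single list here, 9 belonged to 5-azacytidine replicate 2.

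**Figure D4:**
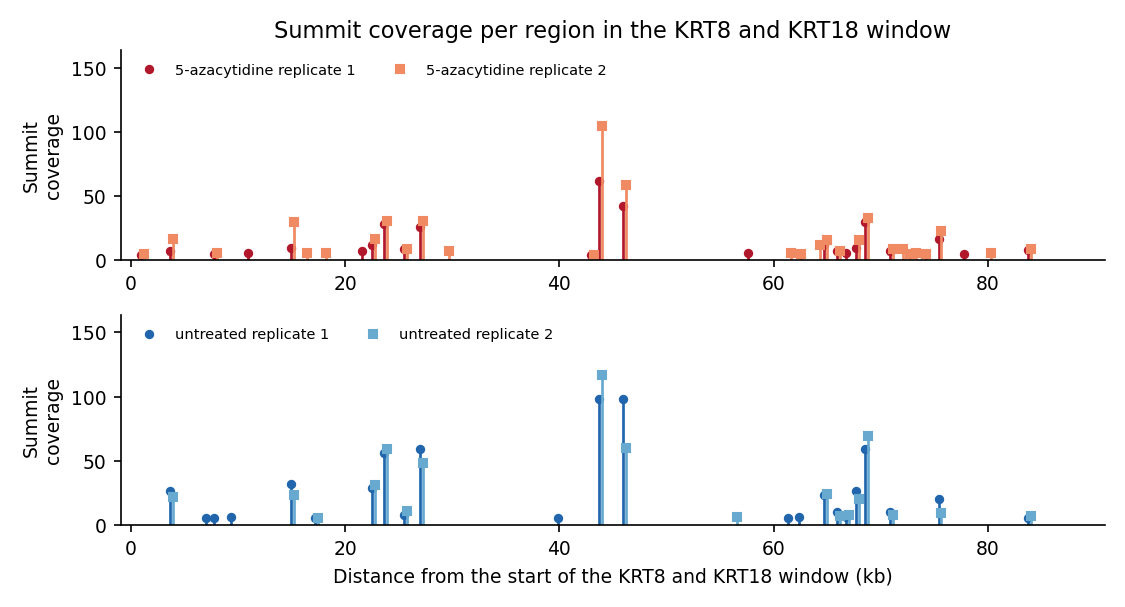
Summit coverage (reads, vertical axes) of each region against the distance of its centre from the start of the KRT8 and KRT18 window in kb, with 5-azacytidine libraries in the upper and untreated libraries in the lower panel. The highest region has 62 and 105 in the upper and 98 and 117 in the lower panel.

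KRT19, the type I keratin used as a marker of papillary thyroid carcinoma, had lower coverage in both 5-azacytidine lists at 5 of its 6 regions in all 4 lists, against a background of 47.6%. On chromosome 17 the region from 39703771 to 39704599 had 33 and 72 in 5-azacytidine libraries against 115 and 84 in untreated libraries. From 39676950 to 39678932 coverage was 18 and 41 against 89 and 56, and from 39686307 to 39686841 it was 19 and 23 against 67 and 38. The groups were apart at all 3 regions. The last 2 had log2 ratios of −1.30 and −1.32, below which 6.93% and 6.12% of all regions of 4 lists lay. On scaled coverage 4 of the 6 regions were lower, against a background of 22.2%.

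KRT7, a type II keratin of glandular and simple epithelia, had sites of both directions side by side. Its highest regions were lower with treatment, by about the shift of the libraries as a whole. On chromosome 12 the region from 52637761 to 52638787 had 34 and 63 in 5-azacytidine libraries against 77 and 77 in untreated libraries. From 52635918 to 52637666 coverage was 28 and 48 against 54 and 49, and from 52623703 to 52624624 it was 33 and 39 against 61 and 51. Both 5-azacytidine lists lay below both untreated lists at all 3, and by as little as 1 read at the second. These regions were named for their height. The background was 47.6%, and 66.1% over regions of 4 lists with a mean coverage of at least 20. The log2 ratios were −0.67, −0.44 and −0.64, beside the median of −0.55 over all regions of 4 lists. On scaled coverage the groups overlapped at all 3.

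Directly after these came a stretch of 13937 bp, from 52638948 to 52652884, in which coverage was mostly higher with 5-azacytidine. It was taken, after the values were seen, as the longest run in the windows of neighbouring regions, among those gained or in all 4 lists, that were gained or had higher scaled coverage in both 5-azacytidine lists. Of its 9 regions 8 had a peak in every list and 1 was the gained region named above, and 6 of the 8 were higher without scaling as well. The median log2 ratio of the 8 regions was 0.80, and 1.39 on scaled coverage. The other 11 regions of all 4 lists in the window had a median of −0.67, beside −0.55 over all regions, and ranged from −1.34 to −0.28. Of these 11 regions 9 were lower, a share raised by taking the stretch out. Over all 19 regions of all 4 lists in the window the 9 made 47.4%, against a background of 47.6%. On scaled coverage 3 of the 19 regions of all 4 lists in the whole window were lower, or 15.8%, against 22.2%. The stretch was selected for its direction, so these values describe it and are no test.

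Within the stretch the highest coverage, from 52646341 to 52647486, was 44 and 60 in 5-azacytidine replicates 1 and 2, against 39 and 37 in untreated replicates 1 and 2. The widest, from 52641516 to 52644822, had 26 and 49 against 14 and 20. From 52650857 to 52651619 coverage was 18 and 32 against 13 and 7, with a log2 ratio of 1.32 that 99.8% of all regions of 4 lists lay below. In each of these the groups did not overlap. The region from 52647515 to 52649192 had 23 and 25 against 14 and 13, that from 52649913 to 52650726 had 20 and 24 against 11 and 14, and that from 52651676 to 52652884 had 15 and 16 against 8 and 10. The groups did not overlap in these either. At the region from 52644978 to 52646306 they met, with 18 and 27 against 14 and 18, and in the first region of the stretch, from 52638948 to 52641416, they overlapped, with 7 and 11 against 10 and 10.

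The regions on either side of the stretch lay outside it by the way it was chosen. That next before it, from 52637761, had the 34 and 63 against 77 and 77 given above. The next after it, from 52653421 to 52655953, had 15 and 16 in 5-azacytidine libraries against 28 and 21 in untreated libraries. Coverage in 5-azacytidine replicate 1 was about the same inside and outside, with medians of 19 and 17, and was 26 and 23 in 5-azacytidine replicate 2. The untreated libraries had medians of 13.5 each inside the stretch, against 46 and 33 in the rest of the window in untreated replicates 1 and 2. Peak numbers in the stretch were 21 and 20 in 5-azacytidine lists against 14 and 16 in untreated lists. In the rest of the window they were 24 and 26 against 24 and 30. Over the whole window they were 45 and 46 against 38 and 46, and the groups overlapped. The choice of the stretch bears on its peak numbers too, since its gained region has no untreated peak by definition. The median log2 ratio to the untreated mean was 0.65 in 5-azacytidine replicate 1 and 0.86 in 5-azacytidine replicate 2, a direction that the choice of the stretch sets.

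**Figure D5:**
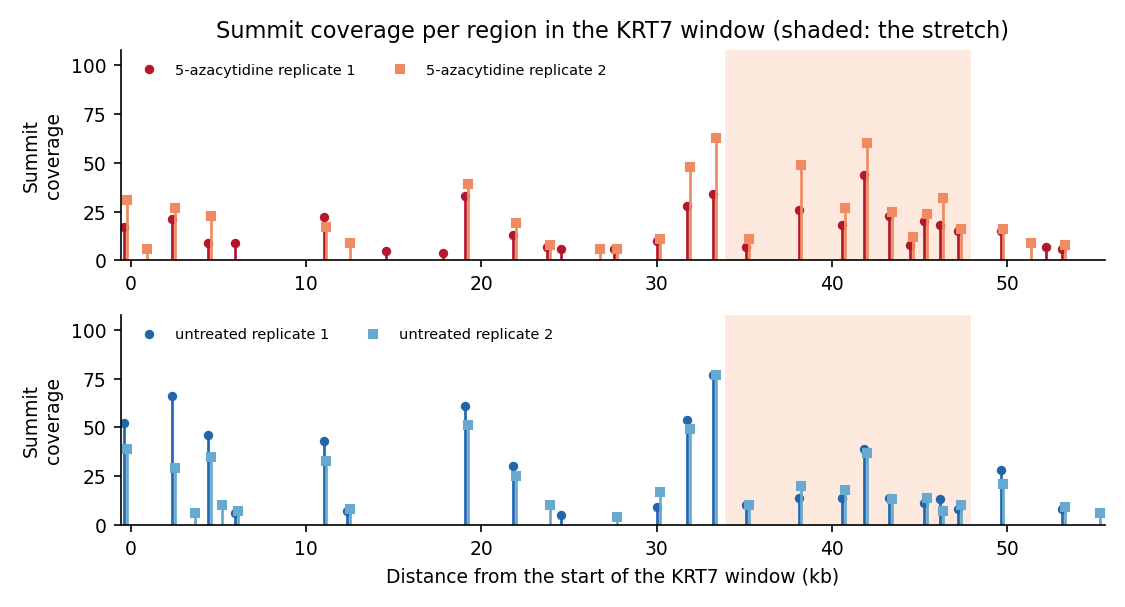
Summit coverage (reads, vertical axes) of each region against the distance of its centre from the start of the KRT7 window in kb, with 5-azacytidine libraries in the upper and untreated libraries in the lower panel, and the stretch from 33.9 to 47.9 kb shaded. Inside the stretch the 5-azacytidine medians are 19 and 26 and the untreated medians 13.5 each, while outside it they are 17 and 23 against 46 and 33.

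Runs of this kind were found elsewhere too. Counted the same way over all chromosomes used there were 25125 runs, of which 168 held at least 9 regions, and the longest, on chromosome 1 from 41458865 to 41524015, held 28. In the other 7 windows no run held more than 3. In the RefSeq gene order KRT7 lies between KRT80 and KRT86, both keratin genes. Which of them the stretch belongs to was not analysed here.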

How the data were processed

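ATAC-seq peak lists of 4 BCPAP libraries were used. Per the submitters' processing notes, the tools were MACS2, Bowtie2, Trimmomatic and Picard, on hg19. Settings, and any shift of read ends for the transposase, were not given in the sources used here. Each library had its own peak calls, and the deposited intervals on chromosomes 1 to 22 and X were 500 bp wide. The deposited peak score sums to 1000000 in each list, a scaling by the authors, and was not used further. The deposited fold enrichment and −log10 p and q values are each peak's own values in its list. In each list at least 99.9996% of fold values lay within 0.001 of a whole number of equal steps, and the step gave the read coverage at the summit. The number of reads is unknown.

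Peaks of the 4 lists with at least 1 bp in common formed a region, and any region overlapping a window was kept whole. Regions were assigned by the peaks present and by the highest summit coverage in each list. Peaks per window were tested by exact permutation of the 4 libraries (two-sided, 6 assignments). Presence and coverage of single regions were described, with the share over all regions as background, and not tested. Named regions were the 3 highest per window by median coverage, all gained and lost regions, and those with coverage higher in both 5-azacytidine lists. A region of the EPCAM window is not reported here. Other named regions were chosen after their values were seen, as was the stretch in the KRT7 window. The members and lists were chosen with earlier results of these data known. Alternatives were equal list lengths, a −log10 q of at least 5, a coverage of at least 10, summits with 100 bp on either side, windows widened by 10 kb, merging within 150 bp, a 50% overlap, missing peak numbers left out, coverage over the list median, leaving out each library and the replicate block. Same-numbered libraries are not paired by the labels. Merging was tested on simulated lists. Python 3.11.15, numpy 2.4.6, pandas 2.3.3 and matplotlib 3.10.9 were used.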

Additional observations from a re-analysis of the deposited data

How the results depend on the processing

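The sign of the peak-number ratio in the 8 windows was not stable. The log2 ratio, 0.042 in the full lists, turned to −0.060 with lists of equal length, −0.169 at a −log10 q of at least 5 and −0.228 at a coverage of at least 10. Without single libraries it ranged from −0.060 to 0.137, turning without 5-azacytidine replicate 2. With the replicate block it was 0.039. Gained regions, 5 in the full lists, numbered 2 with equal lists, 0 at the stricter q and 0 at a coverage of at least 10, 12 with summits and 100 bp on either side, 3 with merging within 150 bp, 9 with a 50% overlap and 3 without missing peak numbers. In that order the share gained over all regions was 3.19%, 2.23%, 1.85%, 3.69%, 4.08%, 3.88% and 4.02%, beside 4.21% in the full lists. Lost regions, 4 in the full lists, numbered 11, 10 and 2 with summits, the 50% overlap and without missing numbers. The share lost over all regions was 3.63%, 3.55% and 3.13% there, beside 3.35% in the full lists. Leaving out a library drops a condition, and gained regions then ranged from 7 to 29 and lost regions from 12 to 13. Over all regions the gained share then ranged from 6.79% to 26.6% and the lost share from 6.51% to 12.3%. Regions with higher coverage, 7 as reported, numbered 4 at the stricter q, or 9.09% of regions in all lists, against 2% over all chromosomes used. At a coverage of at least 10 they numbered 4, or 10.5%, against 1.75%. Merging within 150 bp, where regions of the KRT7 stretch fuse, left 3, or 5%, against 4.3%. On scaled coverage 18 were higher, or 27.3%, against 27.2%. Without single libraries 9 to 14 were higher, or 11.8% to 19.1%, against 6.94% to 16.8%. Regions with lower coverage, 37 as reported, numbered 20 on scaled coverage, or 30.3%, against 22.2%. Without single libraries they numbered 40 to 50, or 54.1% to 66.2%, against 49.8% to 71.8%. With the replicate block, each 5-azacytidine library was set against the untreated library of its number. Then 10 were higher, or 15.2%, against 6.23%, and 40 lower, or 60.6%, against 52.2%. The replicate 1 minus replicate 2 differences of the groups had a correlation of −0.0516 over regions of all 4 lists, so the numbers are not taken to pair the libraries. No block applies to gained and lost regions. The median log2 ratio of the KRT7 stretch was 0.64 to 1.39 over the settings run, on 2 regions with merging within 150 bp. Its sign was set by the choice of the stretch. The cause of these changes was not tested unless stated. Coverage of 4 to 12 at gained and lost regions and the unknown number of reads limit what single regions can show.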
